A study of Homo sapiens with 4 samples.

Results

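The drug efflux transporters described here are 8 genes of the ATP-binding cassette (ABC) family: ABCB1, ABCC1, ABCC2, ABCC3, ABCC4, ABCC5, ABCC10 and ABCG2. They were taken by symbol from the 25798 gene IDs of the deposited tables, and all 8 are listed there. The libraries were made from SW1990, an established human pancreatic adenocarcinoma line whose genotype the labels give as WT. In 2 libraries the cells had received 100 nM erianin for 48 h, and in 2 they had received DMSO, the solvent, for 48 h. Erianin, a bibenzyl from Dendrobium orchids, is known as a tubulin binder. The labels do not tell whether the replicates came from separate cultures, so the p-values reflect library-to-library spread alone, possibly technical.

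ABC transporters are membrane proteins that use ATP to move substrates across a membrane. The members of this group pump drugs, their conjugates or endogenous organic anions out of the cell, and high levels of several of them are known to make tumour cells resistant to chemotherapy. ABCB1 and ABCG2 mainly carry unmodified drugs, whereas many substrates of the ABCC members are conjugated to glutathione, glucuronic acid or sulfate.

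The libraries held 63336545 and 59923935 counts after erianin and 63254725 and 60798427 after DMSO. The ductal keratin gene KRT19 had 999.87 and 1002.82 FPKM (fragments scaled to transcript length and library size) after erianin and 892.91 and 930.73 FPKM after DMSO. All 8 epithelial markers examined were above 0 in every library. The lowest of them, MUC1 or EPCAM, was at 1.6 and 1.94 FPKM after erianin and at 2.3 and 1.48 FPKM after DMSO. Of 13 listed markers of other cell types, ALB and INS matched no gene ID of the deposited tables and were not analysed. Of the other 11, 5 were at 0 in each erianin library, 1 in DMSO replicate 1 and 3 in DMSO replicate 2. These markers summed to 105.4 and 114.3 FPKM after erianin and to 106.9 and 104.6 FPKM after DMSO, nearly all of it from CD68, a lysosomal gene. The fibroblast gene DCN was at 0 in both erianin libraries, at 1 FPKM in DMSO replicate 1 and at 0.02 FPKM in DMSO replicate 2. Erianin replicate 2 stood somewhat apart: the Spearman correlation of log2 CPM across genes, which are not independent, was 0.982 between the erianin libraries, 0.978 and 0.981 between erianin replicate 2 and DMSO and 0.985 and 0.986 between erianin replicate 1 and DMSO, beside 0.987 between the DMSO libraries. For members whose values rest on that library, the values of both erianin libraries are given.

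The level of the members differed widely, by 335-fold in mean FPKM between the highest and the lowest. ABCC3 and ABCC1 led, ABCC10, ABCC5 and ABCC4 lay near the middle of the genes tested, ABCG2 was lower, and ABCB1 and ABCC2 were near 0. Per length, as FPKM summed over the entries of a gene, ABCC3 had 27.05 and 26.11 FPKM after erianin and 26.07 and 24.69 FPKM after DMSO. ABCC1 had 12.8 and 10.02 FPKM after erianin and 12.2 and 11.85 FPKM after DMSO. Together these genes made up 84.5% and 86.8% of the summed FPKM of the 8 members in the erianin libraries and 83.4% and 80.9% in the DMSO libraries. Among the 17090 genes tested, the mean FPKM of ABCC3 lay at percentile 85.3 and that of ABCC1 at percentile 76.3. ABCC10 was at percentile 55.03, ABCC5 at 48.3, ABCC4 at 47.9, ABCG2 at 35.2, ABCB1 at 7.14 and ABCC2 at 5.42. The order of mean FPKM was ABCC3, ABCC1, ABCC10, ABCC5, ABCC4, ABCG2, ABCB1 and ABCC2. The ranges over the 4 libraries overlapped between ABCC5 and ABCC4 and between ABCB1 and ABCC2, so the order within these pairs is not settled. Those of ABCC4 and ABCG2 met at 1.29 FPKM, in erianin replicate 2 for ABCC4 and in DMSO replicate 2 for ABCG2, and ABCC4 was the higher in each library. Each of the other neighbours in the order had ranges that did not overlap.

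**Figure D1:**
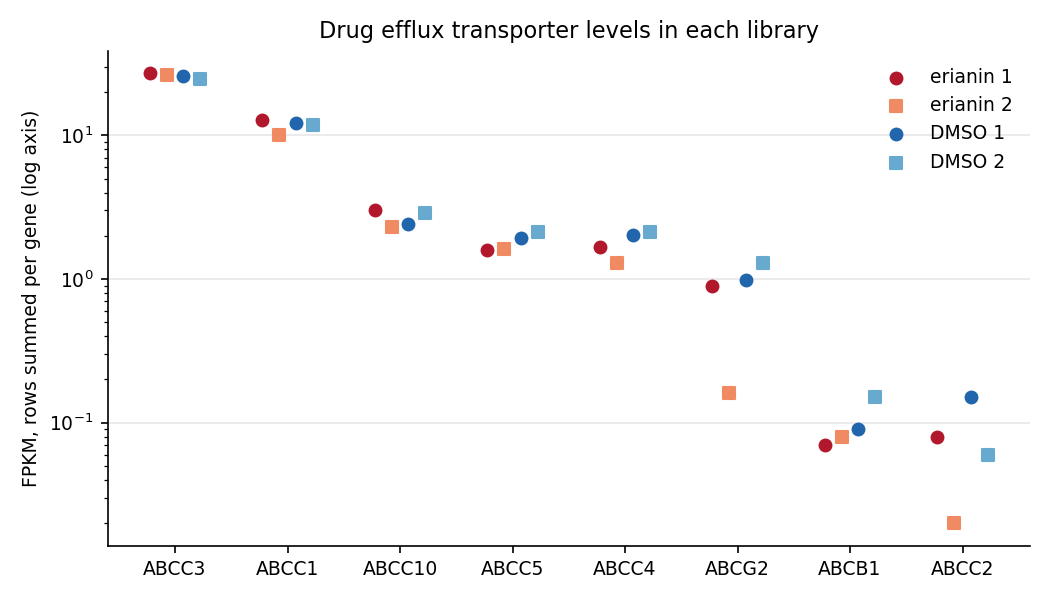
Level of each member in each library as FPKM on a log axis, with a point for each erianin and DMSO library. ABCC3 lay at 24.69 FPKM or above and ABCC1 at 10.02 FPKM or above in every library, while ABCB1 and ABCC2 did not exceed 0.15 FPKM.

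Erianin and DMSO libraries were then compared, to see whether the compound goes with other transporter levels. None of the 8 members passed edgeR's quasi-likelihood test after Benjamini-Hochberg adjustment over all genes, and 7 of 17090 genes, or 0.041%, did. At an unadjusted p under 0.05 the same test counted 0 of the 8 members, where 8.1% of all genes lay. DESeq2 called 0 of 8 members, and 21 of 17090 genes. On log2 FPKM, limma called 0 of the 6 members that passed its filter on low values, and 2 of 16998 genes. The log2 fold change (erianin over DMSO) was below 0 for 5 members and above 0 for 3, with a median of -0.29, and over all genes tested the median was -0.01. All 8 members passed the filter on low counts.

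ABCC3, known as MRP3, exports glucuronides and bile salts and lies on the basolateral side of epithelia. Its gene (GRCh38 chromosome 17, 50634777 to 50692252, plus strand) was at 163.6 and 170.3 CPM (counts scaled to the library size, with TMM factors) after erianin and at 151.8 and 149 CPM after DMSO. Both erianin libraries lay above both DMSO libraries, which was so in this direction for 21.7% of all genes tested. The log2 fold change was 0.15 ± 0.09 (standard error, SE), and edgeR's adjusted p was 0.59. ABCC3 was the only member higher in erianin without overlap. The GC content of its longest annotated transcript is 55.8%, and the 603 better expressed genes (mean log2 CPM of 3 or more) within 1 percentage point of it had a median log2 fold change of 0.12.

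ABCC1, known as MRP1, exports glutathione conjugates and leukotrienes. Its gene (chromosome 16, 15949577 to 16143074, plus strand) was at 93.9 and 82.6 CPM after erianin and at 88.6 and 86.6 CPM after DMSO. The DMSO libraries lay between the erianin libraries, and the log2 fold change was 0.01 ± 0.11 (SE). Among the members, only ABCC3 had a smaller SE. ABCC10, known as MRP7, a transporter whose known substrates include taxanes, was at 16 and 14.2 CPM after erianin and at 13.5 and 15.1 CPM after DMSO. Its groups overlapped as well, with a log2 fold change of 0.08 ± 0.16 (SE). The gene (chromosome 6, 43427366 to 43450430, plus strand) shares exon sequence with DLK2 on the other strand. The sources used here do not say whether reads were counted by strand, so reads from the shared exon sequence cannot be assigned to either gene.

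ABCC4 and ABCC5, known as MRP4 and MRP5, export cyclic nucleotides and nucleotide analogues, and ABCC4 also prostaglandins. ABCC4 (chromosome 13, 95019829 to 95301475, minus strand) was at 11.3 and 9.63 CPM after erianin and at 14.1 and 12.6 CPM after DMSO. ABCC5 (chromosome 3, 183919934 to 184018015, minus strand) was at 8.6 and 10.3 CPM after erianin and at 11.2 and 11 CPM after DMSO. Both genes were lower in both erianin libraries than in either DMSO library. The differences did not pass edgeR's test: the log2 fold change was -0.35 ± 0.17 (SE) for ABCC4, with an adjusted p of 0.575, and -0.23 ± 0.17 (SE) for ABCC5, with an adjusted p of 0.64. ABCC4 has a GC content of 43.2%, and 546 genes near that value had a median log2 fold change of -0.21. After a correction for each library's dependence on GC content and transcript length, the log2 fold change of ABCC4 was -0.07 and that of ABCC5 was -0.15. For ABCC5, at 50.8% GC, 555 genes of like GC content had a median of 0.01. Without erianin replicate 2 the log2 fold change was -0.24 for ABCC4 and -0.36 for ABCC5, and without erianin replicate 1 it was -0.48 for ABCC4 and -0.11 for ABCC5.

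ABCG2, the breast cancer resistance protein, works as a dimer and exports topoisomerase inhibitors and urate. Its gene (chromosome 4, 88090264 to 88231322, minus strand) had 204 and 57 counts after erianin and 260 and 280 after DMSO, or 3.2 and 1.03 CPM after erianin and 3.94 and 4.49 CPM after DMSO. Erianin replicate 2 stood far below the other 3 libraries, and erianin replicate 1 lay only a little below DMSO. The log2 fold change was -0.99 ± 0.47 (SE), and edgeR's adjusted p was 0.575. Without erianin replicate 1 the log2 fold change was -2.05, and without erianin replicate 2 it was -0.39. Each of these fits left a lone erianin library, which was assumed to vary like the DMSO libraries. The size of the difference therefore rests on erianin replicate 2. In bulk RNA, fewer cells that express a gene and less of its RNA per cell cannot be told apart.

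The RefSeq promoter table (GRCh38.p14) held 6 of the 8 members, without ABCC1 and ABCC3. The 250 bases before the RefSeq start of ABCG2 and ABCC10 are shown because ABCG2 has the lowest and ABCC10 the highest transcript GC content of the members, 41.2% and 58.7%. RefSeq starts differ from the GENCODE bounds given here: the ABCC10 stretch lies inside the GENCODE gene, and the ABCG2 stretch lies apart from it, upstream. Capitals mark the GC box, GGGCGG on either strand, the known recognition motif of Sp1.
ABCG2, chr4:88231627-88231876, minus strand: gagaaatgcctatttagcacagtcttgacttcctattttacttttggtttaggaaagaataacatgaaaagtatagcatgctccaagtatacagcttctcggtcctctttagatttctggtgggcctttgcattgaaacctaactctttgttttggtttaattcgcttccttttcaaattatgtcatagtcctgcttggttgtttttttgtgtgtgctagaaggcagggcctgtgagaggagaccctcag
ABCC10, chr6:43427613-43427862, plus strand: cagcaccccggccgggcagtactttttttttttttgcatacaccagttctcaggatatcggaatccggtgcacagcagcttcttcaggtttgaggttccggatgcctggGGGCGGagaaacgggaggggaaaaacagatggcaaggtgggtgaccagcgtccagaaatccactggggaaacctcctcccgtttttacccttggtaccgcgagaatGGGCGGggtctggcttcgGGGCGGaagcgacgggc
The stretch before ABCC10 holds 3 GC boxes and that before ABCG2 holds 0, and 42.6% of 35116 promoters of this length hold at least 1. The GC content of these stretches was 40% for ABCG2 and 58% for ABCC10, beside a median of 58% over all promoters. It was 39.2% for ABCB1, 45.6% for ABCC2, 64.8% for ABCC5 and 80.4% for ABCC4, whose transcript GC content is low. ABCC5 holds 1 GC box, and ABCB1, ABCC2 and ABCC4 hold 0. The core of the xenobiotic response element, GCGTG on either strand, occurs 2 times before ABCC4 and in 32.2% of all promoters. These matches describe letters in the window only. For each member a single RefSeq start, the first listed, was searched, so other starts of these genes were not examined.

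ABCB1, or P-glycoprotein, exports vinca alkaloids, taxanes and anthracyclines, and ABCC2, or MRP2, is the apical exporter of conjugates in liver and kidney. Both had few counts in SW1990. ABCB1 (chromosome 7, 87503633 to 87713323, minus strand) had 26 and 4 counts after erianin and 33 and 34 after DMSO. The exact 95% Poisson interval of the 4 counts, which covers counting error only, runs from 1.09 to 10.2 and lies below that of the 26 counts in the other erianin library, 17 to 38.1. In FPKM, ABCB1 showed no such drop, at 0.07 and 0.08 after erianin and 0.09 and 0.15 after DMSO. Its counts lay in different entries of the gene in the erianin libraries. ABCC2 (chromosome 10, 99782640 to 99852594, plus strand) had 34 and 10 counts after erianin and 49 and 23 after DMSO, so its DMSO libraries differed from each other by 0.95 in log2 CPM and the groups overlapped. Its log2 fold change was -0.63 ± 0.78 (SE), and that of ABCB1 was -1.10 ± 0.90 (SE), with edgeR's adjusted p at 0.774 and 0.66. The log2 fold change of ABCC2 was -0.06 without erianin replicate 2, -1.63 without erianin replicate 1, -0.04 without DMSO replicate 1 and -1.05 without DMSO replicate 2. That of ABCB1 was -0.35 without erianin replicate 2 and -2.83 without erianin replicate 1. ABCB1 passed the filter through the DMSO libraries and erianin replicate 1. It shares 241 nucleotides at 95% identity or more with its paralog ABCB4, which had 0 and 6 counts after erianin and 4 and 6 after DMSO, so its few counts are uncertain to that extent.

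**Figure D2:**
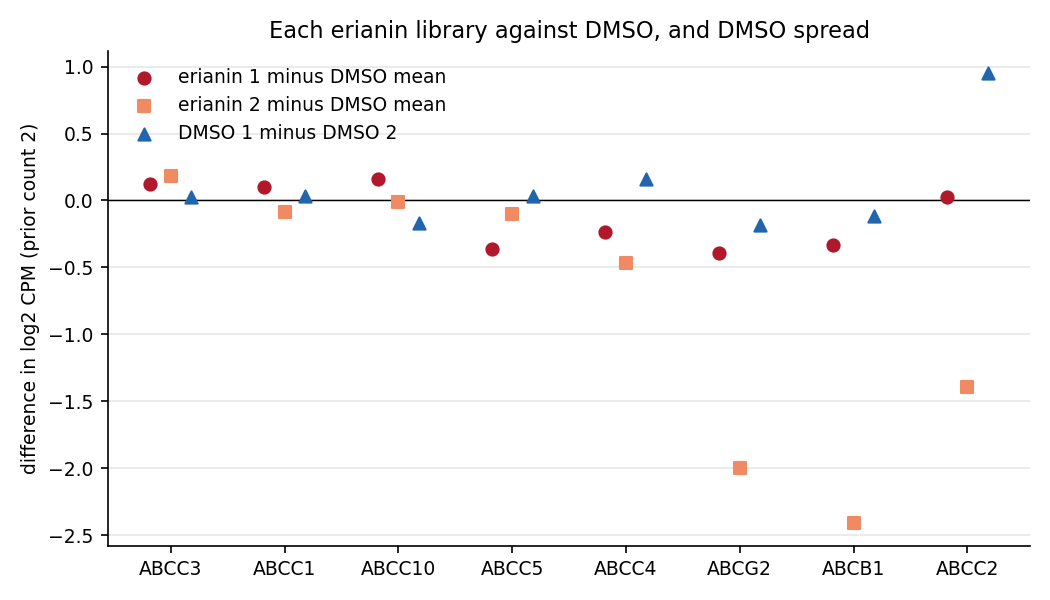
Difference in log2 CPM between each erianin library and the mean of DMSO, beside the difference between the DMSO libraries, for each member. Erianin replicate 2 lay at -2.41 for ABCB1, -2.002 for ABCG2 and -1.39 for ABCC2, and erianin replicate 1 at -0.33, -0.39 and 0.02.

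In log2 CPM, erianin replicate 2 differed from the DMSO mean by -2.002 for ABCG2, -2.41 for ABCB1 and -1.39 for ABCC2, and erianin replicate 1 by -0.39, -0.33 and 0.02. These 3 genes and ABCC4 are the members with the lowest GC content, at 41.2% for ABCG2, 43.1% for ABCB1, 44.9% for ABCC2 and 43.2% for ABCC4. Better expressed genes of like GC content were lower in erianin replicate 2 too, but by less, with a median of -0.44 near the GC content of ABCG2, -0.35 near that of ABCB1 and -0.33 near that of ABCC2. In erianin replicate 1 these medians were -0.12, -0.09 and -0.06. With the GC and length correction the log2 fold change was -0.79 for ABCG2, -0.93 for ABCB1 and -0.44 for ABCC2. With the correction and erianin replicate 2 left out, a combination chosen after seeing the data, it was -0.28 for ABCG2, -0.25 for ABCB1 and 0.05 for ABCC2. What part the GC content has in these differences was not tested further.

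**Figure D3:**
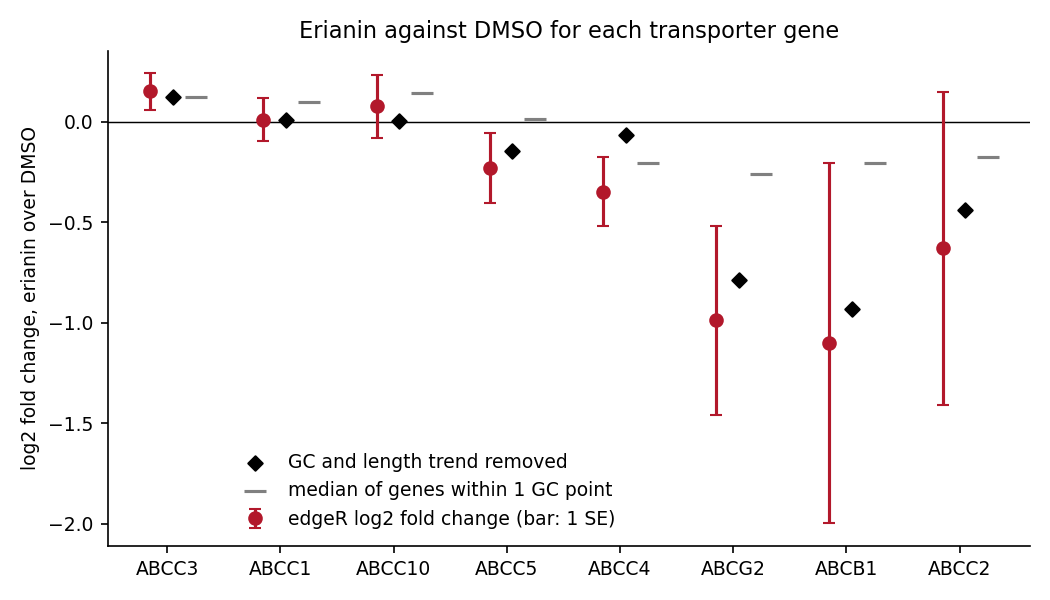
Log2 fold change of erianin over DMSO for each member, with bars of 1 SE, the value after removal of the trend with GC content and length, and the median of genes within 1 percentage point of GC. ABCC4 moved to -0.07 with the trend removed, and ABCG2 to -0.79.

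Of the 8 members, 4 were lower in erianin with no overlap between groups in CPM (ABCB1, ABCC4, ABCC5 and ABCG2), where 24.4% of all genes tested were. Together with ABCC3 this makes 5 of 8 without overlap, beside 46.1% of all genes in either direction. With 2 libraries a group such a pattern is frequent, and no test was made of these shares.

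The counts of several members were divided differently among their entries from library to library. The deposited tables list several entries for a gene without transcript names, and the 8 members had from 2 to 16 entries each. ABCG2 had 80.9% and 100% of its counts in entry 1 after erianin, whereas 95.8% and 91.1% lay in entry 2 after DMSO. Entry 1 of ABCG2 held 165 and 57 counts after erianin and 0 in both DMSO libraries, and entry 2 held 17 and 0 counts after erianin and 249 and 255 after DMSO. ABCC5 also changed its leading entry with the group: entry 3 held 67.9% and 86.4% of the counts after erianin, and entry 1 held 49.1% and 86.7% after DMSO. In DMSO replicate 1 entry 3 of ABCC5 held 292 counts beside 364 in entry 1, so the switch was partial there.

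For other members the leading entry changed within a group. In ABCB1 entry 1 held all 26 counts in erianin replicate 1, and entry 3 held all 4 in erianin replicate 2. Entry 1 also led ABCB1 in both DMSO libraries. In ABCC4 entry 2 held 96% of the counts in erianin replicate 1 and 98.9% in DMSO replicate 1, and entry 1 held 99.8% in erianin replicate 2 and 83.7% in DMSO replicate 2. In ABCC10 entry 1 led in both erianin libraries and in DMSO replicate 2, and entry 4 held 80.3% in DMSO replicate 1. In ABCC1 entry 2 held 2587 counts in erianin replicate 1 and 0 in the other 3 libraries, while entry 5 led in all. ABCC3 kept entry 4 in the lead throughout, at 91.4% and 89.9% after erianin and 76.1% and 95% after DMSO. Of the 5 members with at least 100 counts in each library, 2 kept the same leading entry in all libraries, where 71.8% of 9989 such genes with several entries did. A leading entry shared within groups and different between them was found in 1 of these 5, ABCC5, and in 2.05% of all such genes. ABCG2 was below the minimum of 100 counts in erianin replicate 2. No test was made of the entries, since the counts are estimated and the entries carry no names. How reads shared between entries were treated is not given in the sources used here.

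**Figure D4:**
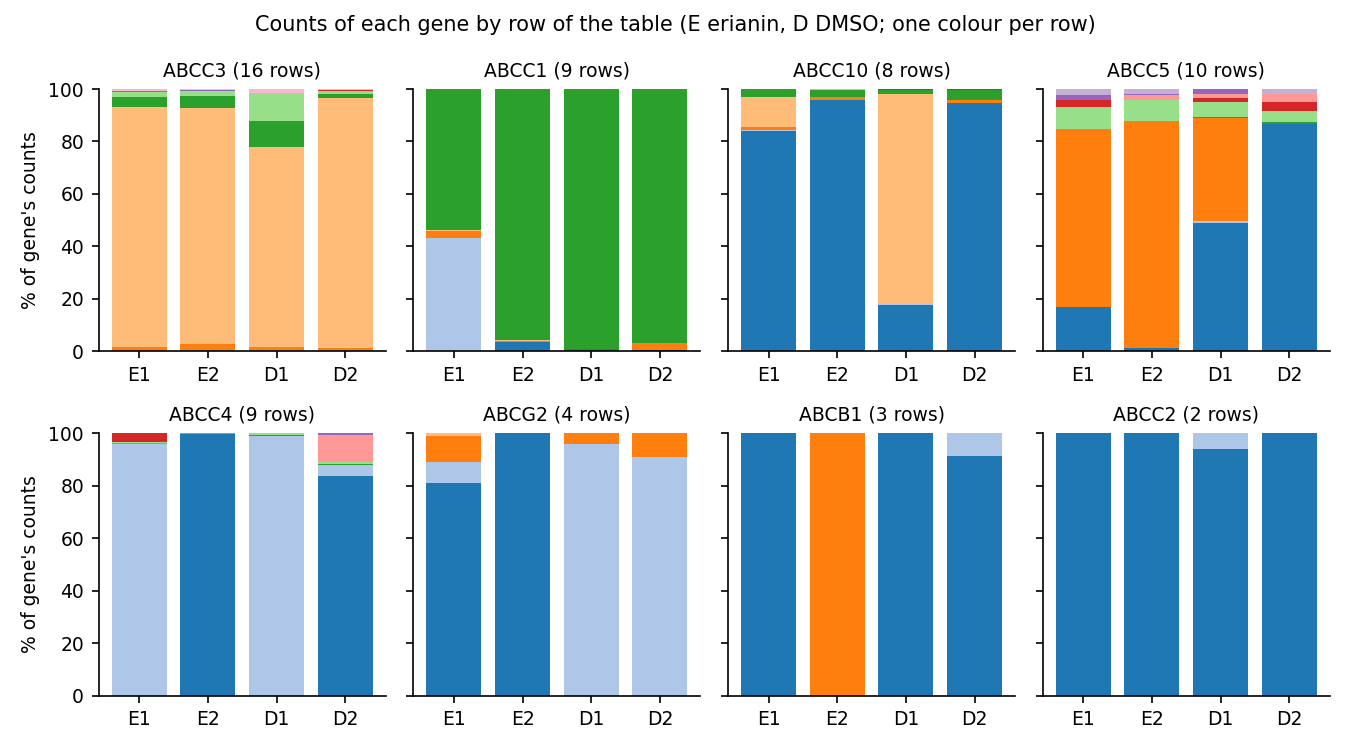
Share of the counts of each member held by each of its entries in the deposited table, in the erianin libraries (E1, E2) and the DMSO libraries (D1, D2), with a colour for each entry. ABCG2 and ABCC5 show a different leading entry after erianin and after DMSO, and ABCC4, ABCC10 and ABCB1 differ between replicates of a group.

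Of the 48 human ABC genes listed, the other 40 include 32 that are in the tables and 25 that were tested. None of the 25 passed edgeR's adjusted test, 2 were higher and 3 lower at an unadjusted p under 0.05, where 8.1% of all genes lay, and their median log2 fold change was -0.08. TAP1, which feeds peptides to HLA class I and overlaps a noncoding gene, had 90.3 and 102 CPM after erianin and 78.1 and 77.9 CPM after DMSO, a log2 fold change of 0.30 ± 0.11 (SE) that was 0.17 with the GC and length correction. ABCA1, the cholesterol exporter, was at 5.76 and 4.25 CPM after erianin and at 6.85 and 7.92 CPM after DMSO, with a log2 fold change of -0.56 ± 0.23 (SE), or -0.30 with the correction. ABCA9 had 0 counts in both erianin libraries and 18 and 13 after DMSO, at least 4.76-fold lower when each erianin library is set to a floor of 3 counts. It passed the filter through the DMSO libraries alone, so its direction was set by the filter and its place among the 3 lower genes says nothing further. Among the other subfamilies, the log2 fold change was -0.32 for ABCE1, a ribosome recycling factor, -0.36 for ABCD3, a peroxisomal transporter, and 0.13 for ABCG1, a cholesterol exporter. With the correction these were -0.08 for ABCE1, -0.14 for ABCD3 and 0.07 for ABCG1. Set against the DMSO mean, ABCD3 was at -0.03 in erianin replicate 1 and -0.79 in erianin replicate 2, and its groups overlapped. The log2 fold change was -0.29 ± 0.43 (SE) for ABCC6, which shares long stretches with its pseudogenes, and 0.28 ± 0.45 (SE) for CFTR, a chloride channel. With the correction, ABCC6 was at -0.36 and CFTR at 0.57, both further from 0. ABCG1 was the only other ABCG gene that passed the filter.

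**Figure D5:**
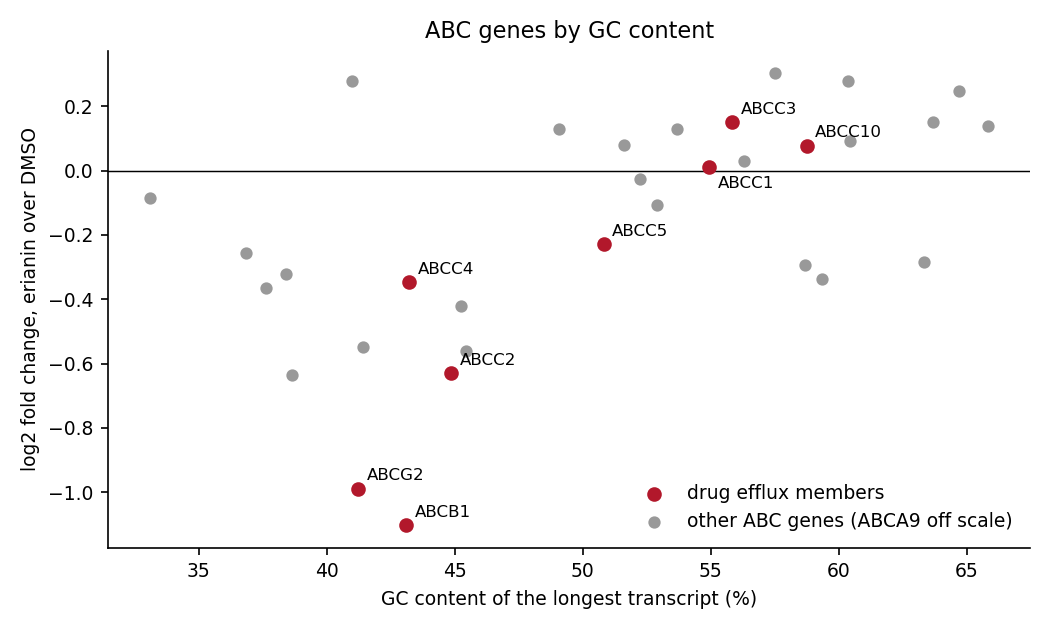
Log2 fold change of erianin over DMSO against the GC content of the longest annotated transcript, for the members and for the other ABC genes tested. Members with a GC content under 45% lie below 0, and ABCG2 and ABCB1 lie lowest of the points drawn; ABCA9 is off the scale.

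The ABC gene whose log2 CPM moved most like that of each member over the 4 libraries was found by the smallest Euclidean distance of values less the gene's own mean, among 25 ABC genes whose mean log2 CPM reached 1. ABCC3 was nearest to ABCA2, at a distance of 0.04, ABCC4 to ABCE1 at 0.07, ABCC10 to ABCD4 at 0.11, ABCC1 to ABCF1 at 0.12 and ABCC5 to ABCB10 at 0.20. ABCG2 had no near neighbour: the closest, ABCB6, was at a distance of 0.96. ABCB6 was also lowest in erianin replicate 2, at 0.63 below its mean, where ABCG2 was 1.40 below. ABCB6 shares exon sequence on the same strand with AC068946.2, and reads can be divided between them. That gene had 1196 and 1844 counts after erianin and 1282 and 1057 after DMSO. With 4 libraries these distances are a description.

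Genes known to regulate efflux transporters lay mostly below DMSO, with 11 of 15 tested below 0 (median log2 fold change -0.21), beside 8772 of all 17090 genes, and none passed the adjusted test. Set against DMSO, erianin replicate 1 had a median of -0.05 over these genes and erianin replicate 2 one of -0.36. With the GC and length correction the median log2 fold change was -0.08. HIF1A, the hypoxia-inducible factor, had 99.4 and 76.6 CPM after erianin and 122.9 and 125 CPM after DMSO, a log2 fold change of -0.49 ± 0.13 (SE), or -0.28 with the correction. PPARA, a lipid-sensing nuclear receptor, was at 5.7 and 4.01 CPM after erianin and at 9.59 and 6.2 CPM after DMSO. NFE2L2, which encodes NRF2, had a log2 fold change of -0.36, AHR, the aryl hydrocarbon receptor, one of -0.37, and YBX1 one of -0.01. With the correction these were -0.22 for NFE2L2, -0.07 for AHR and -0.12 for YBX1. AHR was at -0.20 in erianin replicate 1 and -0.56 in erianin replicate 2, set against the DMSO mean. The pregnane X receptor gene NR1I2, a main inducer of ABCB1 in liver, matched no gene ID of the deposited tables and was not analysed.

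Membrane scaffolds of transporters had 5 of 6 genes below 0 (median log2 fold change -0.17), with CAV1 at -0.20 and RDX, which tethers ABCC2 in liver, at -0.35. Set against DMSO, the list had a median of -0.03 in erianin replicate 1 and -0.29 in erianin replicate 2. CAV1 was at -0.07 and -0.36 and RDX at -0.02 and -0.76 in these libraries, with overlapping groups for RDX. With the GC and length correction the median was -0.09, CAV1 was at -0.08 and RDX at -0.11. Of the 16 conjugating enzymes, which make or supply substrates of the ABCC members, 9 were above 0 and 7 below, with a median of 0.01. GSTP1, the abundant glutathione transferase, had 1361 and 1690 CPM after erianin and 1220 and 1229 CPM after DMSO, a log2 fold change of 0.32 ± 0.12 (SE) that was 0.10 with the GC and length correction. UGT1A6 had one of -1.59 ± 0.53 (SE), and it shares exons with the other UGT1A genes, between which reads can be divided. It was at -0.91 in erianin replicate 1 and -2.41 in erianin replicate 2, set against the DMSO mean. Its DMSO libraries, at 6.79 and 3.16 CPM, differed from each other by 1.10 in log2 CPM. With the correction the log2 fold change of UGT1A6 was -1.45. Of 15 genes of drug uptake and other drug transport tested, 7 were above 0 and 8 below, with a median of -0.04. ATP7A, a copper pump, had a log2 fold change of -0.68, and SLC29A1, the nucleoside carrier that takes up gemcitabine, had one of 0.21. With the correction these were -0.37 for ATP7A and 0.07 for SLC29A1. ATP7A was at -0.32 in erianin replicate 1 and -1.01 in erianin replicate 2, set against the DMSO mean. The DMSO libraries differed by 0.69 in log2 CPM for ATP7A, and the groups overlapped for ATP7A and SLC29A1. ATP7A shares exon sequence on the same strand with PGK1, which had far more counts. No gene of these 3 lists passed the adjusted test.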

How the data were processed

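RNA sequencing of 2 erianin and 2 DMSO libraries was analysed from the deposited tables. The authors deposited estimated counts, as whole numbers without normalization. The FPKM values were deposited by the authors in the same rows, per the file headers. Per the submitters' processing notes, fastp, STAR, StringTie 2.2.1, featureCounts 2.0.1 and GRCh38 were used, with no role or order; for annotation, strandedness and shared reads the sources used here give nothing. The plan had assumed plain counts. The 107429 rows were summed to 25798 gene IDs. Reads that shift between rows of a gene shift FPKM through row length.

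edgeR 4.0.16 (R 4.3.3) used TMM factors (1.01 and 0.928 for erianin, 1.04 and 1.03 for DMSO), filterByExpr with a minimum count of 10, which left 17090 genes, and the quasi-likelihood F test with the group only (2 residual degrees of freedom), Benjamini-Hochberg adjustment and a threshold of 0.05. SE is the log2 fold change over the square root of F. The fit was tested on simulated data. Alternatives used DESeq2 1.42.0 and limma 3.58.1 on log2(FPKM + 0.1) and log2(FPKM + 1). GC content, length and coordinates (1-based) came from GENCODE release 29, the trend from natural splines with 5 degrees of freedom.

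The members, lists and tests were chosen with earlier results of these data known. Named genes are the members and, from each other list, the 2 with the smallest p; AHR, NFE2L2, YBX1 and SLC29A1 were named after their values were seen. Some genes that the rule names are not reported here.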

Additional observations from a re-analysis of the deposited data

How the results depend on the processing

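Of 130 log2 fold changes of members under 17 alternatives, 118 kept their direction and their side of the threshold, 2 passed it and 10 turned. The count of members past the threshold was 0 in all but 2 settings. With the replicate number as a block it was 1, ABCG2 (log2 fold change -1.17, edgeR adjusted p = 0.036), where 334 of 17090 genes passed. With the block and the GC and length trend removed, ABCG2 was at -0.91 (edgeR adjusted p = 0.468). The other setting left out erianin replicate 1, so a lone erianin library remained, and ABCG2 was at -2.05 there. More genes passed in this setting than in any other, so the pass of ABCG2 is not read as particular to it.

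The 7 genes past the threshold became 2 with library totals alone, 21 with DESeq2, 2 with limma at either pseudocount (0.1 or 1), 1 with limma and no filter, 334 with the replicate block and 22 with the block and the GC and length trend removed. Leaving out each library gave 24 to 3166, and 25 with the trend removed and without erianin replicate 2, a setting chosen after seeing the data. The labels do not say that a replicate number marks a shared batch. Deviations of same-numbered libraries from their group means had a correlation of 0.22 over 7986 genes, in 2 pairs. Each group gives a single difference between its libraries, so this value cannot show a pairing, and its cause was not tested.

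ABCC1 turned to -0.085 with library totals alone, where the median of all genes was -0.11, to -0.086 with limma at a pseudocount of 0.1 with or without a filter and to -0.079 at 1, and ranged from -0.095 to 0.10 when each library was left out. ABCC10 turned to -0.017 with library totals alone and ranged from -0.021 to 0.16 when each library was left out. ABCC2 turned to 0.050 with the trend removed and without erianin replicate 2. The cause was not tested. ABCC4 and ABCC5 exchanged places in the order of level when CPM per kilobase replaced FPKM. Counts of 4 to 49 limit what can be said of ABCB1 and ABCC2.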
